A study of Mus musculus with 62 samples.

Results

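Tibialis anterior muscle, a fast muscle of the shin, was profiled by RNA sequencing 6 weeks after mice had received cachectic melanoma cells (CAC), and it was compared with the same muscle of mock-injected mice of the same week. The comparison held 10 of the 62 libraries of the series, 5 CAC and 5 mock, chosen by their labels alone, and every gene of the table entered it. All animals were females that were 2 months old at injection. The design text names them NCI Ath/nude, an athymic strain that lacks mature T cells, whereas the strain label of the samples reads C57BL6/J, and the files do not settle which holds. From the same week, 5 muscles of mice given non-cachectic melanoma cells (NCAC) served as a second comparison. Muscles of weeks 2, 4 and 8 were used to place week 6 in time. The labels do not name the melanoma lines, the injection site or the tumour sizes, and nothing in them says whether muscles were pooled. The p-values measure only the spread between these libraries, which may in part be technical.

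Cachexia is the loss of muscle and fat that accompanies some tumours. In muscle, cytokines of the interleukin-6 family act through the receptor subunit gp130, JAK kinases and the transcription factor STAT3, and raised glucocorticoids act through the glucocorticoid receptor. Both can induce acute-phase genes, metallothioneins and brakes on growth signalling, while FOXO factors drive the ubiquitin ligases that mark contractile proteins for the proteasome.

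Values are TPM, transcript abundances scaled for transcript length, which add up to 1000000 in each library. A smaller share of very abundant transcripts therefore raises all others. This mattered here, since the 37 mitochondrially encoded genes of the table took 33.5, 36.8, 40.7, 41.3 and 40.7% of the TPM of CAC replicates 1 to 5, against 44.0, 47.9, 51.7, 48.0 and 47.7% in mock replicates 1 to 5. The groups did not overlap (38.6 ± 3.39 against 47.9 ± 2.74%, SD, n = 5 each, two-sided exact permutation p = 0.00794, the smallest that 5 against 5 allows). The 50 most abundant genes took 60.1 ± 4.36% in CAC and 69.4 ± 1.34% in mock muscle (exact permutation p = 0.00794, n = 5 each). Most results are thus given both as deposited and after rescaling by median-of-ratios size factors. These factors ran from 1.08 to 1.37 in CAC and from 0.788 to 0.929 in mock libraries. CAC replicate 1 stood apart, with the highest size factor and a score of 61.5 on the first principal component against 17.1 to 25.6 in the other CAC libraries. Without it the difference in the mitochondrially encoded share was -7.98 in place of -9.26 percentage points. Folds that move by over 1.5 times without it are given without it as well.

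**Figure D1:**
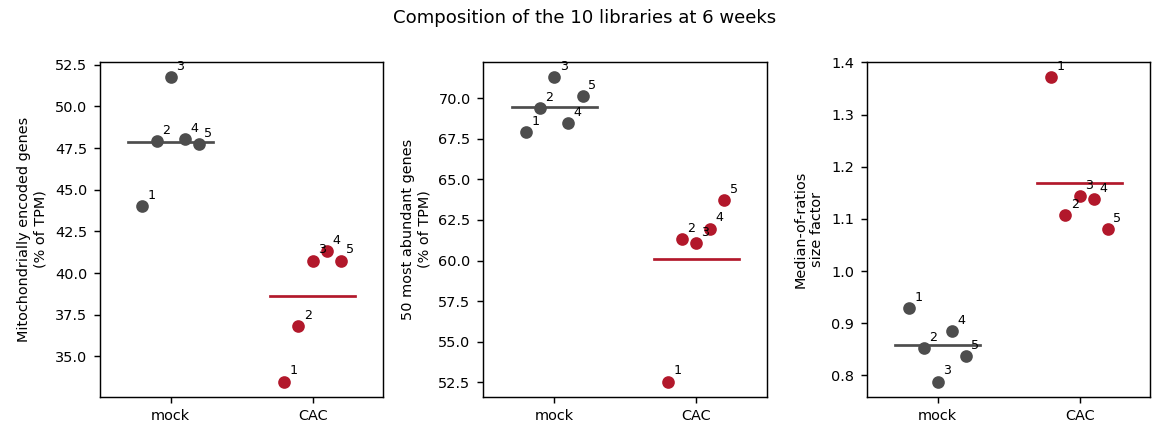
Share of TPM in mitochondrially encoded genes, share of TPM in the 50 most abundant genes, and median-of-ratios size factor (no unit) of each library at 6 weeks. Points are libraries with their replicate numbers and bars are group means; CAC and mock muscle do not overlap in any of the panels, and CAC replicate 1 has the lowest shares and the highest size factor of the CAC libraries.

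Of 11151 genes whose mean over the 10 libraries reached 1 TPM, 7344 (65.9%) differed between CAC and mock muscle at an adjusted p under 0.05 as deposited (limma on log2(TPM + 1), Benjamini-Hochberg). Of these, 6923 genes (62.1% of those tested) were higher and 421 (3.78%) were lower, and all genes together had a median log2 change of 0.38. After rescaling, 3526 genes (31.6%) differed, 1641 (14.7%) higher and 1885 (16.9%) lower, with a median of 0.01. All 1641 genes higher after rescaling were also higher as deposited, and all 421 genes lower as deposited were also lower after rescaling. A further 5251 genes were called higher only as deposited, 1433 were called lower only after rescaling, and 31 were called higher as deposited and lower after rescaling. As deposited, all CAC muscles lay above all mock muscles for 5006 of the 11151 genes and below them for 215. After rescaling these counts were 1173 and 1389. Statements below that groups did not overlap read against these counts, and the 15 largest increases and 15 largest decreases were picked with no overlap required. Below, "rose" and "fell" name genes called as deposited; where rescaling ends or turns a call, that is said. Log2 changes were computed from log2(TPM + 1), so they are too small for genes of low level, and folds are ratios of mean TPM.

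Many genes rose in a list of cytokine receptors, kinases and STATs built around the interleukin-6 and interleukin-1 families. The list also holds genes of other cytokine pathways, such as Il4ra, Csf2rb and Stat6. Of 23 tested members of that list, 19 rose and 0 fell as deposited, and 11 and 1 after rescaling (median log2 change 1.02 and 0.63). Among all genes, 62.1% rose and 3.78% fell as deposited, and 14.7% and 16.9% after rescaling, and each list below reads against these shares. Socs3, a STAT3 target that blocks gp130 signalling, stood at 50.8, 32.6, 61.4, 34.8 and 42.9 TPM in CAC replicates 1 to 5 and at 1.51, 0.923, 1.81, 2.03 and 1.42 TPM in mock replicates 1 to 5. Every CAC muscle lay above every mock muscle, at a 28.96-fold ratio of means (log2 change 4.14, SE 0.18, adjusted p = 7.57e-08, with 3.79 and 3.2e-07 after rescaling). Osmr, the receptor subunit for oncostatin M, reached 11.3, 6.71, 8.45, 8.79 and 6.84 TPM in CAC and 1.44, 1.51, 1.37, 1.54 and 1.48 TPM in mock muscle. Osmr had a log2 change of 1.91, adjusted p = 2e-06, and of 1.58 after rescaling. The interleukin-1 receptor Il1r1 (6.29 ± 0.749 against 1.56 ± 0.262 TPM, SD, n = 5 each; log2 change of 1.51, adjusted p = 2.8e-06, and of 1.18 after rescaling) rose without overlap of the groups. So did Csf2rb, the shared receptor subunit for interleukin-3, interleukin-5 and GM-CSF (14.9 ± 3.67 against 1.72 ± 0.517 TPM, SD, n = 5 each; log2 change of 2.53, adjusted p = 2.12e-06, and of 2.19 after rescaling). Among the 16 tested genes of NF-kB and inflammatory receptors, 15 rose and 0 fell as deposited, and 8 and 0 after rescaling (median log2 change 0.75 and 0.43). The TNF receptor Tnfrsf1a held 45.4 ± 8.39 against 14.5 ± 0.912 TPM (SD, n = 5 each; log2 change of 1.57, adjusted p = 5.6e-06, and of 1.14 after rescaling).

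Acute-phase genes, which liver and other tissues express in response to these cytokines, had some of the largest increases. Of 13 tested members of the 22 listed, 13 rose and 0 fell as deposited, and 11 and 0 after rescaling (median log2 change 1.66 and 1.4990); the members below 1 TPM on average, such as Saa3 and Hpx, were not tested. Serpina3n, a secreted inhibitor of serine proteases, stood at 377, 55.6, 69.98, 93.8 and 66.3 TPM in the CAC muscles and at 3.396, 1.74, 2.14, 1.96 and 2.996 TPM in the mock muscles. CAC replicate 1 was far above the other CAC muscles, which still exceeded every mock muscle; the 54.2-fold ratio of means became 29.2 once that library was left out (log2 change 4.87, SE 0.42, adjusted p = 1.28e-05, with 4.50 and 3.57e-05 after rescaling). Lcn2, a siderophore-binding protein, had 188, 35.4, 23.6, 28.7 and 12.4 TPM in CAC and 0.227, 0.242, 0.245, 0.331 and 0.343 TPM in mock muscle. Its ratio of means, 207, was 90.0 without CAC replicate 1 (log2 change 4.85, SE 0.53, adjusted p = 6.39e-05, with 4.58 and 0.000173 after rescaling). Hp, which encodes the hemoglobin scavenger haptoglobin, was at 69.6, 28.4, 64.9, 261 and 85.3 TPM in CAC and 1.13, 1.103, 0.748, 0.453 and 6.499 TPM in mock muscle (log2 change 5.02, SE 0.54, adjusted p = 6.15e-05, with 4.68 and 0.000381 after rescaling). CAC replicate 4 and mock replicate 5 were each far above their group, and the ratio of means moved from 51.3 to 31.2 without the former and to 119 without the latter. Lbp, which carries bacterial lipopolysaccharide, had little spread (19.6 ± 3.92 against 2.15 ± 0.262 TPM, SD, n = 5 each; log2 change of 2.69, adjusted p = 1.77e-07, and of 2.33 after rescaling). Cebpd, a transcription factor of the acute-phase response, held 122, 87.7, 34.3, 58.1 and 76.99 TPM against 13.8, 10.5, 4.496, 7.73 and 6.402 TPM. Cebpd had a log2 change of 2.97, adjusted p = 7.33e-05, and of 2.56 after rescaling. Hepatocyte markers were low in all libraries, with none at a level that could be tested. Their 8 genes summed to 0.627 to 3.27 TPM in CAC and 0.186 to 0.871 TPM in mock muscle.

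Most complement genes rose: of 15 tested, 14 rose and 0 fell as deposited, and 12 and 0 after rescaling (median log2 change 1.62 and 1.29). The list shares C1qa with the macrophage markers and Cfd with the adipocyte markers given below. The part of those cells in the complement values was not tested. C4b, part of the classical pathway, stood at 19.8, 15.3, 22.01, 27.5 and 26.1 TPM in CAC and 1.74, 1.01, 0.924, 1.12 and 1.24 TPM in mock muscle. The groups were 18.3-fold apart and did not overlap (log2 change 3.37, SE 0.15, adjusted p = 1.15e-07, with 3.04 and 1.23e-06 after rescaling). C3, the central component, held 66.1, 44.5, 64.1, 63.2 and 73.9 TPM against 12.1, 7.64, 9.14, 5.69 and 5.297 TPM. C3 had a log2 change of 2.85, adjusted p = 2.99e-06, and of 2.44 after rescaling. The inhibitor of the first component, Serping1, rose beside them (109 ± 14.99 against 27.2 ± 1.71 TPM, SD, n = 5 each; log2 change of 1.95, adjusted p = 4.46e-07, and of 1.52 after rescaling).

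The metallothioneins Mt2 and Mt1, small proteins that bind zinc and copper, had the largest log2 changes of all 11151 genes tested. Mt2 was at 3710.2, 1190.4, 1826, 528 and 724 TPM in CAC replicates 1 to 5 and at 18.5, 6.02, 5.13, 18.2 and 7.95 TPM in the mock muscles. The lowest CAC muscle was thus above the highest mock muscle, and CAC replicate 1 was the highest (log2 change 6.86, SE 0.50, adjusted p = 4.08e-06, with 6.45 and 1.36e-05 after rescaling). Mt1 held 4266, 1125, 1746, 669.9 and 716 TPM against 33.3, 29.01, 28.4, 59.5 and 27.4 TPM, a 48.02-fold ratio of means that was 30.0 without CAC replicate 1 (log2 change 5.24, SE 0.44, adjusted p = 9.63e-06, with 4.81 and 3.26e-05 after rescaling). Mt1 and Mt2 are close copies of each other, and how reads were divided between such genes is not given in the sources used here. In the whole list of metallothioneins and zinc transporters (17 tested), 15 rose and 0 fell as deposited, and 6 and 2 after rescaling (median log2 change 0.60 and 0.21).

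**Figure D2:**
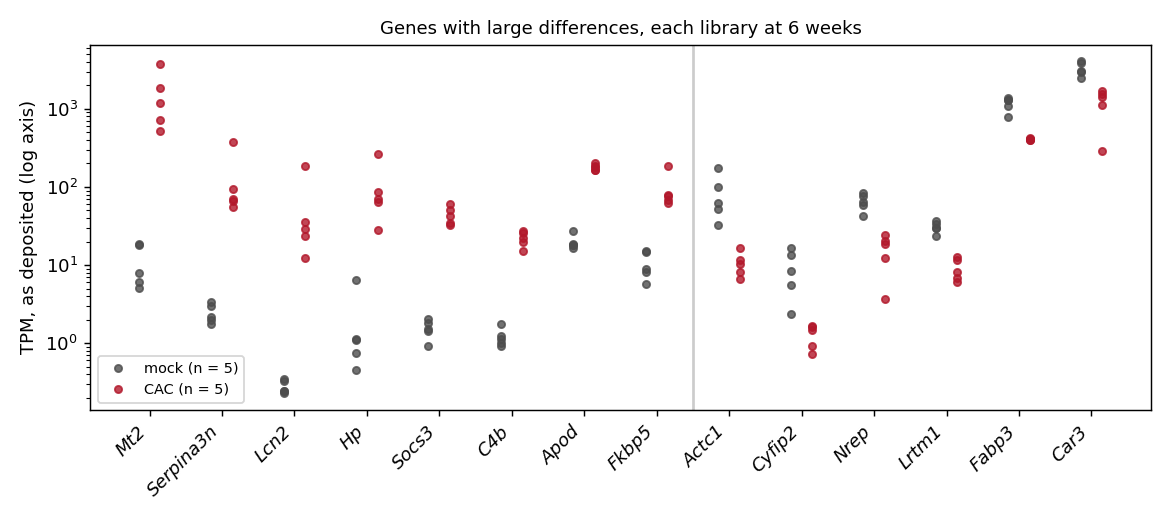
TPM as deposited (log axis) of 14 genes in each of the 5 mock and 5 CAC libraries of 6 weeks, risers left of the line and fallers right of it. Each point is a library. All 14 genes were picked by a rule that required no overlap of the groups. The spread among CAC libraries is wide for Mt2, Lcn2 and Hp and narrow for Apod and Fabp3.

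The promoters of 3 of these risers are shown because they hold motifs of factors known from these pathways. The windows are the 250 bases before the gene's start in RefSeq's promoter table on GRCm38.p6, and for Serpina3n only the first 188 of these, since RefSeq's gene record begins 62 bases before that start. They are written 5′ to 3′ on the gene's strand, with motif matches in capitals. In Mt2 (chr8:94172368-94172617, plus strand) the capitals mark TGCNCNC on either strand. This pattern is looser than the core of a metal response element, so not every match fits that core. In C3 (chr17:57228137-57228386, minus strand) they mark TTGCNNAA, a C/EBP motif, and in Serpina3n (chr12:104406458-104406645, plus strand) GNACA and TGTNC 3 bases apart, a glucocorticoid receptor motif.
Mt2: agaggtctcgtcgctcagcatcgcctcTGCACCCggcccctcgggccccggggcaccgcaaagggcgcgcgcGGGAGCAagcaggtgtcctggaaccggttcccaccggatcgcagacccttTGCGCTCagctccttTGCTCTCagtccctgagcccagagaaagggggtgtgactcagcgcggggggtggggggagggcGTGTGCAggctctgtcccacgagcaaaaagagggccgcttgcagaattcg
C3: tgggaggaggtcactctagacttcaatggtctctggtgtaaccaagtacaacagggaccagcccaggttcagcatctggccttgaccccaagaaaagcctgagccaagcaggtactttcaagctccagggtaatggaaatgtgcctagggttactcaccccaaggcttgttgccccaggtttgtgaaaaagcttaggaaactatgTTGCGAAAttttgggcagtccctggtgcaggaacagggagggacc
Serpina3n: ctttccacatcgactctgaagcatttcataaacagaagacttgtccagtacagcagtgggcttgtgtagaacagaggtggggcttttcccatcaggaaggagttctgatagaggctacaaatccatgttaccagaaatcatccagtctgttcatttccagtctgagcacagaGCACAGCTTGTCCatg
Over the promoters of the same length of 8472 tested genes, searched on both strands, TGCNCNC matched 53.2%, TTGCNNAA 7.34%, GNACA with TGTNC 0.283% and the STAT motif TTCNNNGAA 5.93%. Of the 15 genes with the largest increases, 10 had a promoter in the table; among these TGCNCNC matched 6, TTGCNNAA 3 (Lcn2, Mt2 and C3), GNACA with TGTNC 2 (Mt1 and Serpina3n) and TTCNNNGAA 1 (Socs3). Of the 15 with the largest decreases 13 had one, and TGCNCNC matched 8 of them. The 5 matches in Mt2 begin 223, 178, 128, 113 and 50 bases before the start. A match describes letters only and is no binding site.

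Genes known to be induced by glucocorticoids rose, among them Ddit4, which restrains growth signalling. Of 23 tested members of that list, which shares Mt1, Mt2, Cebpd and Lcn2 with lists above, 19 rose and 0 fell as deposited, and 15 and 1 after rescaling (median log2 change 1.34 and 0.91). Fkbp5, a co-chaperone of the glucocorticoid receptor, stood at 185, 68.7, 77.1, 62.8 and 78.9 TPM in CAC and 14.6, 8.23, 8.86, 15.02 and 5.78 TPM in mock muscle (log2 change 3.01, SE 0.31, adjusted p = 4.2e-05, with 2.59 and 0.00013 after rescaling). Ddit4 (REDD1), an inhibitor of mTORC1, was at 269, 231, 47.9, 119.8 and 118 TPM in CAC and 22.8, 28.5, 8.83, 26.2 and 13.5 TPM in mock muscle. Ddit4 had a log2 change of 2.80, adjusted p = 0.000633, and of 2.37 after rescaling. CAC replicates 1 and 2 were the highest for Ddit4 and replicate 3 the lowest, and no CAC muscle reached down into the mock range. Eif4ebp1, which holds back cap-dependent translation, is in the list of brakes on mTORC1 and translation and not in the glucocorticoid list. It had 824, 368, 247, 246 and 204 TPM against 61.8, 60.2, 33.9, 40.8 and 37.3 TPM. Eif4ebp1 had a log2 change of 2.82, adjusted p = 0.000121, and of 2.39 after rescaling. Of the 14 tested brakes on mTORC1 and translation, 7 rose and 1 fell as deposited, and 3 and 2 after rescaling (median log2 change 0.35 and -0.07).

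The muscle ubiquitin ligases rose unevenly. Trim63 (MuRF1), which targets thick-filament proteins, stood at 1820.4, 1285, 225, 272 and 411 TPM in CAC replicates 1 to 5 against 188, 148, 110.2, 198 and 118 TPM in mock replicates 1 to 5. CAC replicates 1 and 2 were far above the other CAC muscles, of which replicate 3 lay closest to the highest mock muscle (log2 change 1.93, SE 0.52, adjusted p = 0.00734, with 1.49 and 0.0418 after rescaling). Fbxo32 (atrogin-1) was at 745, 470.0, 83.4, 208 and 162 TPM in CAC and 126, 88.8, 54.9, 95.5 and 72.2 TPM in mock muscle; the groups overlapped, with CAC replicate 3 inside the mock range. Its call was lost after rescaling (log2 change 1.56, SE 0.49, adjusted p = 0.0152, with 1.12 and 0.0849 after rescaling). Of 28 tested atrophy ligases and regulators of proteolysis, 17 rose and 1 fell as deposited, and 5 and 6 after rescaling (median log2 change 0.52 and 0.11), shares close to those of all genes. The polyubiquitin gene Ubb rose (2126 ± 725 against 645 ± 246 TPM, SD, n = 5 each; log2 change of 1.75, adjusted p = 0.00076, and of 1.31 after rescaling). All 31 tested proteasome subunits rose as deposited, of which 12 were called higher and 0 lower after rescaling. Their median log2 changes were 0.73 and 0.29. The ubiquitin receptor Psmd4 held 164 ± 73.6 against 65.7 ± 8.08 TPM (SD, n = 5 each; log2 change of 1.22, adjusted p = 0.00146, and of 0.78 after rescaling). Of 32 tested autophagy and lysosome genes, 28 rose and 0 fell as deposited, and 7 and 3 after rescaling (median log2 change 0.58 and 0.17), the lysosomal protease Ctsd among the risers (824 ± 330.3 against 367 ± 17.9 TPM, SD, n = 5 each; log2 change of 1.09, adjusted p = 0.00128, and of 0.65 after rescaling).

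Insulin signalling, amino acid stress and growth arrest lists had more risers than fallers as deposited, as all genes did. Of 23 tested genes between the insulin receptor and FOXO, 16 rose and 2 fell as deposited, and 9 and 2 after rescaling (median log2 change 0.58 and 0.18). Pik3r1, the regulatory subunit of PI3-kinase, stood at 41.8, 29.97, 17.8, 27.8 and 26.99 TPM against 6.52, 11.2, 9.32, 12.9 and 7.41 TPM. Pik3r1 had a log2 change of 1.5002, adjusted p = 0.0004, and of 1.09 after rescaling. Igfbp4, which sequesters IGFs, rose (37.9 ± 6.72 against 10.9 ± 1.16 TPM, SD, n = 5 each; log2 change of 1.70, adjusted p = 5.29e-06, and of 1.28 after rescaling), and the insulin receptor inhibitor Grb14 fell, with 8.47 to 10 TPM in mock and 2.4 to 5.71 TPM in CAC muscle (log2 change of -1.09, adjusted p = 0.000646, and of -1.46 after rescaling). In the integrated stress response and amino acid transporter list (20 tested), 15 rose and 0 fell as deposited, and 8 and 2 after rescaling (median log2 change 0.80 and 0.42); Slc3a2, a transporter subunit, held 39.6 ± 9.71 against 13.6 ± 1.201 TPM (SD, n = 5 each; log2 change of 1.45, adjusted p = 3.49e-05, and of 1.03 after rescaling). Asparagine synthetase, Asns, stood at 3.04, 1.66, 2.99, 2.62 and 3.15 TPM against 0.586, 1.07, 0.779, 0.842 and 0.859 TPM. Asns had a log2 change of 1.00, adjusted p = 0.000209, and of 0.74 after rescaling. Of 18 tested p53 and growth arrest genes, 9 rose and 0 fell as deposited, and 2 and 2 after rescaling (median log2 change 0.56 and 0.13). The cell cycle inhibitor Cdkn1a (p21) was at 145, 54.8, 51.02, 29.9 and 32.6 TPM in CAC and 30.5, 8.095, 6.11, 9.46 and 8.997 TPM in mock muscle. The groups overlapped only through mock replicate 1, without which the ratio of means was 7.68 instead of 4.97 (log2 change of 2.20, adjusted p = 0.00216, and of 1.79 after rescaling).

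Most genes for the cytosolic translation machinery rose as deposited. Of 83 tested cytosolic ribosomal proteins, 82 rose and 0 fell as deposited, and 69 and 1 after rescaling (median log2 change 0.84 and 0.40), and their summed share of TPM was 3.17 ± 0.598% in CAC against 1.77 ± 0.134% in mock muscle (SD, n = 5 each). Rpl12 stood at 218, 156, 158, 183 and 134 TPM in CAC and 91.8, 67.1, 65.7, 77.8 and 77.9 TPM in mock muscle. Rpl12 had a log2 change of 1.14, adjusted p = 0.000146, and of 0.70 after rescaling. Ribosomal protein genes have many processed copies, so the level of any single one is uncertain. Of 60 tested translation factors and their regulators, 57 rose and 0 fell as deposited, and 13 and 1 after rescaling (median log2 change 0.55 and 0.16); the elongation factor Eef1a1 held 539, 397, 432, 587 and 436 TPM against 209, 214, 225, 219 and 215 TPM. Eef1a1 had a log2 change of 1.12, adjusted p = 3.46e-05, and of 0.68 after rescaling. Of 23 tested genes of Myc and ribosome biogenesis, 22 rose and 0 fell as deposited, and 5 and 0 after rescaling (median log2 change 0.56 and 0.15). Myc itself stood at 9.63, 8.98, 6.16, 8.696 and 4.79 TPM in CAC and 0.795, 1.06, 0.683, 1.21 and 1.37 TPM in mock muscle, with no overlap. Myc had a log2 change of 2.07, adjusted p = 8.46e-06, and of 1.76 after rescaling. The ribosomal proteins of mitochondria are a separate list: of 76 tested, 11 rose and 3 fell as deposited, and 0 and 51 after rescaling (median log2 change 0.07 and -0.35). As deposited, 7 of these rose without CAC replicate 4, mock replicate 3 or mock replicate 5, and 5 fell without CAC replicate 3 or mock replicate 1.

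Genes of oxidative metabolism were lower under both scalings, in shares above the 3.78% and 16.9% of all genes. Among 36 tested nuclear-encoded subunits of complex I, 2 rose and 11 fell as deposited, and 0 and 34 after rescaling (median log2 change -0.15 and -0.59). Ndufs1, which carries iron-sulfur clusters, was at 119, 163, 165, 157 and 166 TPM in CAC and 221, 235, 256, 229.6 and 200.4 TPM in mock muscle (log2 change -0.57, SE 0.11, adjusted p = 0.00178, with -1.01 and 0.00134 after rescaling). Of 40 tested genes of complexes II, III, IV and ATP synthase, 1 rose and 16 fell as deposited, and 0 and 39 after rescaling (median log2 change -0.19 and -0.63), with Sdhb of complex II at 330.5 ± 36 against 464 ± 49.4 TPM (SD, n = 5 each; log2 change of -0.49, adjusted p = 0.00277, and of -0.93 after rescaling). Of the 13 protein genes of the mitochondrial genome, 0 rose and 10 fell as deposited, and 0 and 13 after rescaling (median log2 change -0.34 and -0.78). The cytochrome oxidase subunit mt-Co2 held 42168 to 52452 TPM in CAC and 56069 to 67598 TPM in mock muscle, without overlap (log2 change of -0.37, adjusted p = 0.00285, and of -0.81 after rescaling). Of 28 genes of pyruvate oxidation and the tricarboxylic acid cycle, 0 rose and 12 fell as deposited, and 0 and 23 after rescaling (median log2 change -0.19 and -0.63); leaving out CAC replicate 5 left 7 fallers as deposited, and leaving out mock replicate 3 or 4 left 5. Malate dehydrogenase, Mdh2, was at 638, 699, 693, 702 and 671 TPM in CAC and 887, 1011, 1072, 1015 and 1011 TPM in mock muscle. Mdh2 had a log2 change of -0.55, adjusted p = 0.000361, and of -0.99 after rescaling. Citrate synthase, Cs, was at 533 ± 41.5 against 708 ± 27.6 TPM (SD, n = 5 each; log2 change of -0.41, adjusted p = 0.00178, and of -0.85 after rescaling).

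Genes of fatty acid uptake and oxidation were lower as well. Fabp3, the fatty acid carrier of muscle and heart, stood at 394, 403, 420.4, 417 and 408 TPM in CAC replicates 1 to 5 and at 795, 1310.2, 1367, 1317 and 1084 TPM in mock replicates 1 to 5. The CAC muscles lay within a narrow band below every mock muscle, 2.88-fold lower in mean (log2 change -1.49, SE 0.14, adjusted p = 1.73e-05, with -1.94 and 4.36e-05 after rescaling). Of 27 tested genes of fatty acid uptake and oxidation, 5 rose and 15 fell as deposited, and 0 and 20 after rescaling (median log2 change -0.29 and -0.73); 3 rose as deposited without mock replicate 3. The thiolase Acaa2 held 105, 131, 134, 139.9 and 135 TPM against 176, 243, 251, 239 and 221 TPM. Acaa2 had a log2 change of -0.80, adjusted p = 0.000459, and of -1.24 after rescaling. Pdk4, a kinase that shuts off pyruvate oxidation in fasting, did not pass the test, with 1357, 941, 123, 743 and 608 TPM in CAC and 236, 703, 538, 255 and 389 TPM in mock muscle (adjusted p = 0.345). CAC replicate 3 was the lowest of the 10 libraries for Pdk4, and without it the log2 change was 1.16 (adjusted p = 0.0115). Glycolysis and glycogen genes were mixed: of 32 tested, 16 rose and 2 fell as deposited, and 5 and 11 after rescaling (median log2 change 0.34 and -0.10). Pfkfb4, which makes an activator of glycolysis, rose (48.9 ± 9.74 against 23.4 ± 3.84 TPM, SD, n = 5 each; log2 change of 1.02, adjusted p = 0.000448, and of 0.59 after rescaling). Of 21 genes of PGC-1 and mitochondrial biogenesis, 8 rose and 1 fell as deposited, and 3 and 10 after rescaling (median log2 change 0.10 and -0.34). Of 11 genes of creatine and adenylate buffering, 4 rose and 3 fell as deposited, and 0 and 6 after rescaling (median log2 change 0.12 and -0.30), with 2 risers as deposited without mock replicate 5 and the mitochondrial creatine kinase Ckmt2 among the fallers (1165 ± 347 against 2337 ± 556 TPM, SD, n = 5 each; log2 change of -1.04, adjusted p = 0.00458, and of -1.48 after rescaling).

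**Figure D3:**
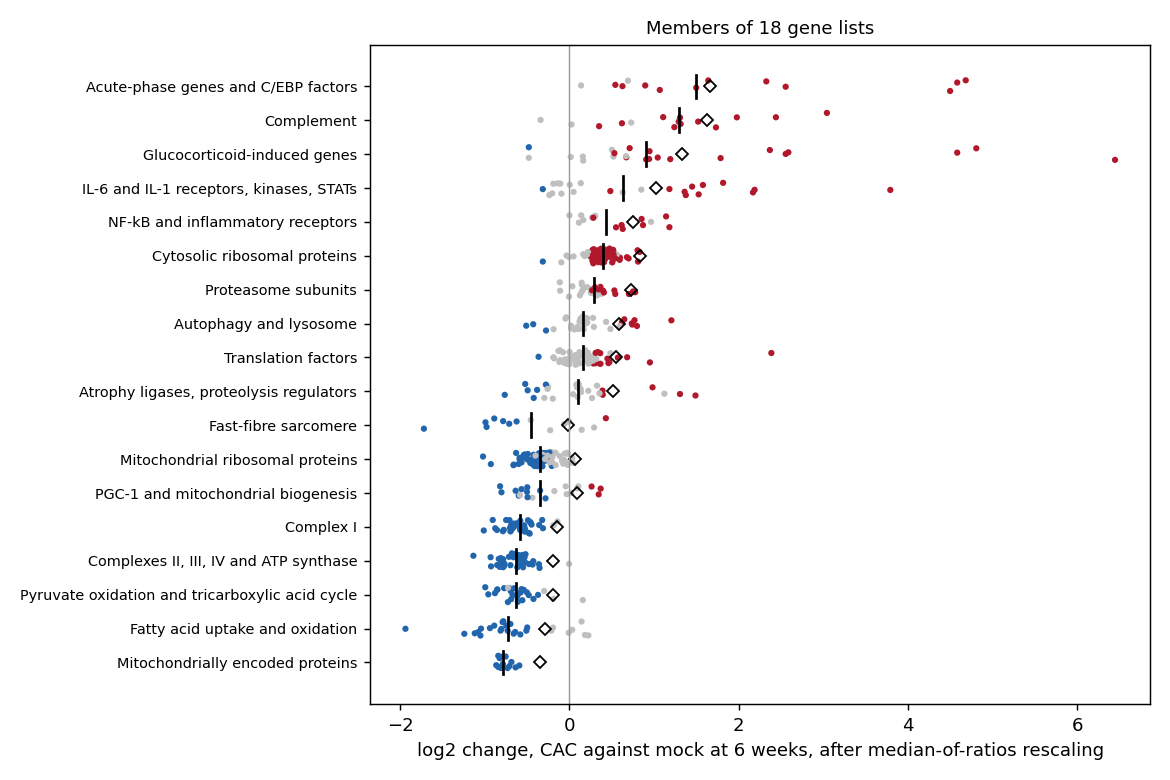
Log2 change of each tested member of 18 gene lists, CAC against mock at 6 weeks after median-of-ratios rescaling, with red for called higher, blue for called lower and grey for not called (limma, adjusted p under 0.05). Black bars are list medians after rescaling and open diamonds are list medians as deposited; among these lists the acute-phase and complement medians are the highest and those of mitochondrially encoded proteins and fatty acid genes the lowest under both scalings.

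Sarcomere genes moved in both directions. The 6 muscle fibre markers Acta1, Ckm, Myh4, Ttn, Mb and Tnnt3 summed to 62517 to 89383 TPM in CAC and 68314 to 82403 TPM in mock muscle. Of 15 tested fast-fibre sarcomere genes, 6 rose and 1 fell as deposited, and 1 and 7 after rescaling (median log2 change -0.01 and -0.46), with 4 fallers as deposited without CAC replicate 2. Of 21 slow, oxidative and fetal ones, 4 rose and 2 fell as deposited, and 2 and 3 after rescaling (median log2 change 0.19 and -0.21). Actc1, cardiac actin that skeletal muscle expresses while it develops, had the lowest log2 change of all 11151 genes tested, with 10.3, 6.67, 16.8, 11.7 and 8.04 TPM in CAC and 32.5, 98.5, 177, 62.3 and 51.9 TPM in mock muscle. The groups did not overlap and were 7.905-fold apart in mean (log2 change -2.69, SE 0.38, adjusted p = 0.000363, with -3.11 and 0.000646 after rescaling). Myh4, the fastest myosin heavy chain, was at 13182 ± 2649 against 8941 ± 2866 TPM (SD, n = 5 each) with overlapping groups (log2 change of 0.59, adjusted p = 0.0226, and of 0.15 after rescaling, adjusted p = 0.573). Its call was lost without CAC replicate 1 or without mock replicate 2, 3 or 4, at log2 changes of 0.50, 0.54, 0.49 and 0.52. Myh2, the oxidative fast isoform, was at 224 ± 60.5 against 406 ± 173 TPM (SD, n = 5 each; log2 change of -0.79, adjusted p = 0.0321, and of -1.23 after rescaling), and it lost its call without CAC replicate 1 or 3 or mock replicate 3, 4 or 5 (log2 changes of -0.63, -0.72, -0.76, -0.58 and -0.74). Mylk2, the kinase of the fast myosin light chain, rose (1353 ± 292 against 731 ± 123 TPM, SD, n = 5 each; log2 change of 0.87, adjusted p = 0.00153, and of 0.43 after rescaling).

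Of 19 tested Z-disc and stretch genes, 9 rose and 0 fell as deposited, and 3 and 0 after rescaling (median log2 change 0.55 and 0.11), no more than among all genes by share as deposited. The intermediate filament desmin, Des, stood at 3578, 2100.2, 2193, 2047 and 2296 TPM in CAC and 1054, 803, 795, 1056 and 1185 TPM in mock muscle, without overlap. Des had a log2 change of 1.30, adjusted p = 0.000202, and of 0.86 after rescaling. Of 25 tested heat shock proteins and co-chaperones, 15 rose and 0 fell as deposited, and 3 and 3 after rescaling (median log2 change 0.42 and 0.00); the muscle heat shock protein Hspb7 held 1344, 1226, 1156, 946 and 1018 TPM against 237, 271, 279, 551 and 308 TPM. Hspb7 had a log2 change of 1.84, adjusted p = 6.34e-05, and of 1.40 after rescaling. Filamin C, Flnc, was at 366, 399, 694, 255 and 329.9 TPM in CAC and 115, 114, 131, 257 and 125 TPM in mock muscle, where mock replicate 4 stood apart for both genes and overlapped the lowest CAC muscle for Flnc. Flnc had a log2 change of 1.45, adjusted p = 0.00151, and of 1.01 after rescaling.

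Of 18 tested genes of calcium release and membrane excitation, 5 rose and 0 fell as deposited, and 0 and 8 after rescaling (median log2 change 0.10 and -0.33); 3 rose as deposited without mock replicate 3. Casq1, the calcium buffer of the fast sarcoplasmic reticulum, which the fast-fibre list holds, was at 246, 1055, 1109, 896 and 1378 TPM in CAC and 2752, 1675, 1662, 1709 and 2279.6 TPM in mock muscle. CAC replicate 1 was the lowest, and without it the log2 change was -0.85 in place of -1.28 (adjusted p = 0.013, -1.72 after rescaling). Sarcolipin, Sln, an inhibitor of the calcium pump, had 30.9, 3.48, 21.3, 30.3 and 5.07 TPM against 0.801, 2.71, 2.81, 3.54 and 1.67 TPM (log2 change of 2.19, adjusted p = 0.00485, and of 1.83 after rescaling); CAC replicate 2 lay within the mock range and CAC replicate 5 close above it. Of 15 genes of the neuromuscular junction and denervation, 2 rose and 2 fell as deposited, and 0 and 5 after rescaling (median log2 change 0.16 and -0.15), with 4 risers as deposited without mock replicate 4. The acetylcholine receptor subunit Chrna1 held 8.59 ± 1.26 against 5.38 ± 1.06 TPM (SD, n = 5 each; log2 change of 0.59, adjusted p = 0.0027, and of 0.21 after rescaling, where its call was lost with adjusted p = 0.13).

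Among satellite cell and myogenic factors (12 tested), 6 rose and 0 fell as deposited, and 2 and 2 after rescaling (median log2 change 0.31 and -0.02). Myf6, the myogenic factor of mature fibres, stood at 216, 222, 263, 149 and 151 TPM in CAC and 96, 78.1, 70.1, 96.96 and 90.3 TPM in mock muscle. Myf6 had a log2 change of 1.18, adjusted p = 0.000338, and of 0.74 after rescaling. In the myostatin, activin and BMP list (26 tested), 14 rose and 2 fell as deposited, and 6 and 3 after rescaling (median log2 change 0.38 and 0.01); without CAC replicate 1 none was lower as deposited. Myostatin, Mstn, which limits muscle mass, was at 42.01, 56.5, 35.5, 20.4 and 55.1 TPM in CAC and 30.6, 16.3, 14.3, 19.3 and 17.7 TPM in mock muscle, and the groups overlapped (log2 change of 1.02, adjusted p = 0.00662, and of 0.59 after rescaling, where its call was lost with adjusted p = 0.107). The BMP inhibitor noggin, Nog, held 25.1, 16.4, 21.5, 12.2 and 15.99 TPM against 4.73, 4.55, 3.98, 5.79 and 4.503 TPM. Nog had a log2 change of 1.72, adjusted p = 2.95e-05, and of 1.33 after rescaling. Its ligand Bmp4 rose as well (8.69 ± 0.899 against 3.15 ± 0.372 TPM, SD, n = 5 each; log2 change of 1.22, adjusted p = 6.26e-06, and of 0.86 after rescaling). Of 13 tested muscle-secreted factors, 3 rose and 5 fell as deposited, and 1 and 6 after rescaling (median log2 change 0.12 and -0.24); 3 fell as deposited without mock replicate 3. The cytokine gene Il15 fell, with 6.65 to 13.9 TPM in mock and 4.79 to 6.09 TPM in CAC muscle (log2 change of -0.72, adjusted p = 0.00267, and of -1.10 after rescaling). Fndc5, the precursor of irisin, fell too, with 47.3 to 68.2 TPM in mock and 28.2 to 41.96 TPM in CAC muscle (log2 change of -0.68, adjusted p = 0.00193, and of -1.11 after rescaling).

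Other cells of the muscle were read from their markers; in bulk tissue, more cells of a type and more RNA per cell cannot be told apart. Of 11 macrophage and monocyte markers, 8 were tested and all 8 rose, 6 of them also after rescaling, and the list summed to 104 to 149 TPM in CAC and 44.9 to 63.3 TPM in mock muscle. The 6 tested adipocyte markers all rose, 4 also after rescaling, with summed levels of 540.2 to 1423 TPM in CAC and 375 to 505 TPM in mock muscle. Adipoq, which defines fat cells, was at 12.2, 9.19, 9.79, 41.9 and 24.4 TPM in CAC replicates 1 to 5, against at most 4.22 TPM in mock muscle. Cidec, a lipid droplet protein of fat cells, was likewise highest in CAC replicates 4 and 5, at 11.05, 6.81, 7.66, 30.99 and 23.1 TPM. Cidec had a log2 change of 2.13, adjusted p = 0.000952, and of 1.77 after rescaling. Replicate 4 was also the highest for Hp, and the part of fat in that value was not tested. The neutrophil list summed to 6.25 to 32.2 TPM in CAC and 4.21 to 6.99 TPM in mock muscle. The 3 tested genes of its 9 were called higher as deposited, 2 of them also after rescaling. CAC replicate 1, highest for Lcn2, also held the highest sum of this list, and the part of neutrophils in Lcn2 was not tested. T and natural killer cell genes summed to at most 0.365 TPM, with none at a level to test. The melanocyte list summed to 7.26 to 9.85 TPM in CAC and 5.01 to 6.49 TPM in mock muscle. Its 2 tested genes, Mitf and Sox10, were called higher as deposited and not after rescaling, and Sox10 is also in the Schwann cell list. The defining melanocyte gene Tyr was at 0 TPM in all 10 libraries, as was the keratinocyte gene Krt14. Of the 9 endothelial markers 7 rose and 1 fell, of 9 fibro-adipogenic 4 rose, of 7 smooth muscle and pericyte 5 rose, of 7 Schwann cell 4 rose, of 5 tendon 2 rose and 1 fell, of 2 satellite cell 1 rose, and of 5 erythroid none was called, counting tested genes as deposited. After rescaling, 3 endothelial markers rose and 2 fell, 2 fibro-adipogenic, 1 smooth muscle and pericyte and 1 Schwann cell marker rose, 1 tendon marker fell, and no satellite or erythroid marker was called. Erythroid sums overlapped, at 644 to 788 TPM in CAC and 402 to 1232 TPM in mock muscle. No cell cycle marker reached a level to test. Of the 7 B cell genes, 2 could be tested and the heavy chain gene Ighm fell, from 17.6, 55.01, 67.5, 42.5 and 42.4 TPM in mock to 11.5, 14.96, 6.46, 5.904 and 21.6 TPM in CAC muscle. Ighm had a log2 change of -1.84, adjusted p = 0.00223, and of -2.25 after rescaling.

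Lipid droplet, matrix, interferon and antigen presentation lists rose in shares near or below the 62.1% of all genes. Of 18 tested genes of lipid droplets and lipolysis, 11 rose and 0 fell as deposited, and 3 and 2 after rescaling (median log2 change 0.73 and 0.33); Plin4, a droplet coat protein, held 699, 378, 270.0, 373 and 367 TPM against 114, 139, 119, 165 and 105 TPM. Plin4 had a log2 change of 1.64, adjusted p = 0.000234, and of 1.20 after rescaling. The lipid droplet list shares Plin1 and Cidec with the adipocyte markers, and the part of fat cells in its values was not tested. Of 25 collagens and matrix genes, 10 rose and 0 fell as deposited, and 5 and 2 after rescaling (median log2 change 0.20 and -0.20), and the collagen cross-linking enzyme Lox stood at 15.4, 13.5, 9.62, 8.02 and 9.62 TPM in CAC and 2.58, 1.34, 1.09, 1.22 and 1.302 TPM in mock muscle. Lox had a log2 change of 2.28, adjusted p = 7.97e-06, and of 1.95 after rescaling. Fibro-adipogenic cell markers summed to 709.6 to 899 TPM in CAC and 394 to 505 TPM in mock muscle, and their part in the matrix values was not tested. Interferon-stimulated genes (19 tested) had a median that changed sign with the scaling: 8 rose and 0 fell as deposited, and 2 and 6 after rescaling (median log2 change 0.19 and -0.13). Without CAC replicate 3, 5 of them rose as deposited. Of 16 antigen presentation genes, 6 rose and 0 fell as deposited, and 0 and 1 after rescaling (median log2 change 0.28 and -0.13).

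Several of the strongest changes lay outside these lists. Apod, an apolipoprotein that binds small lipids, was at 202, 163, 184, 180.2 and 166 TPM in CAC and 27.1, 16.4, 18.5, 18.01 and 18.04 TPM in mock muscle, a narrow 9.11-fold difference (log2 change 3.14, SE 0.13, adjusted p = 7.57e-08, with 2.71 and 2.16e-07 after rescaling). Tmem252 held 18.7, 9.93, 5.98, 22.2 and 8.57 TPM against 0.409, 0.654, 0.326, 0.353 and 0.588 TPM (log2 change of 3.12, adjusted p = 1.43e-05, and of 2.85 after rescaling), and Ctxn3 121, 78.1, 31.6, 44.7 and 23.2 TPM against 5.104, 5.55, 5.898, 5.81 and 7.02 TPM. Ctxn3 had a log2 change of 2.90, adjusted p = 0.000161, and of 2.49 after rescaling. Downward, Nrep was at 3.702, 12.2, 18.4, 20.2 and 24.2 TPM in CAC and 42.4, 82.6, 76.8, 58.7 and 64.5 TPM in mock muscle. Nrep had a log2 change of -2.15, adjusted p = 0.00124, and of -2.56 after rescaling. Cyfip2, a regulator of actin branching, fell from 2.39, 5.51, 8.33, 13.5 and 16.7 TPM to 0.9103, 0.722, 1.66, 1.62 and 1.46 TPM. Cyfip2 had a log2 change of -1.97, adjusted p = 0.00147, and of -2.28 after rescaling. Lrtm1 was at 5.98, 6.76, 11.5, 8.12 and 12.6 TPM against 36.6, 29.6, 30.04, 23.7 and 33.5 TPM in mock muscle. Lrtm1 had a log2 change of -1.70, adjusted p = 7.33e-05, and of -2.11 after rescaling. Carbonic anhydrase 3, Car3, held 291, 1557, 1404, 1106 and 1720.1 TPM in CAC and 3916, 4080.1, 3029, 2964 and 2455 TPM in mock muscle, with CAC replicate 1 the lowest. Car3 had a log2 change of -1.64, adjusted p = 0.00506, and of -2.08 after rescaling. Map2k6, a kinase that activates p38, fell as well (3.67 ± 2.49 against 10.3 ± 1.73 TPM, SD, n = 5 each; log2 change of -1.43, adjusted p = 0.00291, and of -1.78 after rescaling). Ky, a Z-disc protein, stood at 7.92, 33.3, 45.6, 61.9 and 56.6 TPM against 118, 94, 81.3, 64.4 and 107 TPM (log2 change of -1.40, adjusted p = 0.0163, and of -1.82 after rescaling), and its log2 change was -0.91 without CAC replicate 1.

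As deposited, the 5 CAC muscles differed among themselves more than the 5 mock muscles did. The SD of log2 values was larger in CAC for 7842 of the 11151 genes (70.3%), with a median of 0.216 against 0.151. Spread and order were read from deposited values only. The size factor of CAC replicate 1 (1.37, against 1.08 to 1.14 in the other CAC libraries) enters this spread, and its part was not tested. The order of the muscles was not the same for all responses. Replicates 1 and 2 were the highest for Trim63, Fbxo32, Ddit4, Cebpd and Pdk4, and replicate 3 the lowest for all 5 of these. Replicate 3 was nevertheless the highest of all for Socs3 and second for Mt2. Replicate 1 was the lowest for Casq1, Car3, Nrep and Ky, while Fabp3, Mdh2 and Apod had nearly the same level in every CAC muscle. These muscles were ordered after their values were seen, and no test was made of the order.

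**Figure D4:**
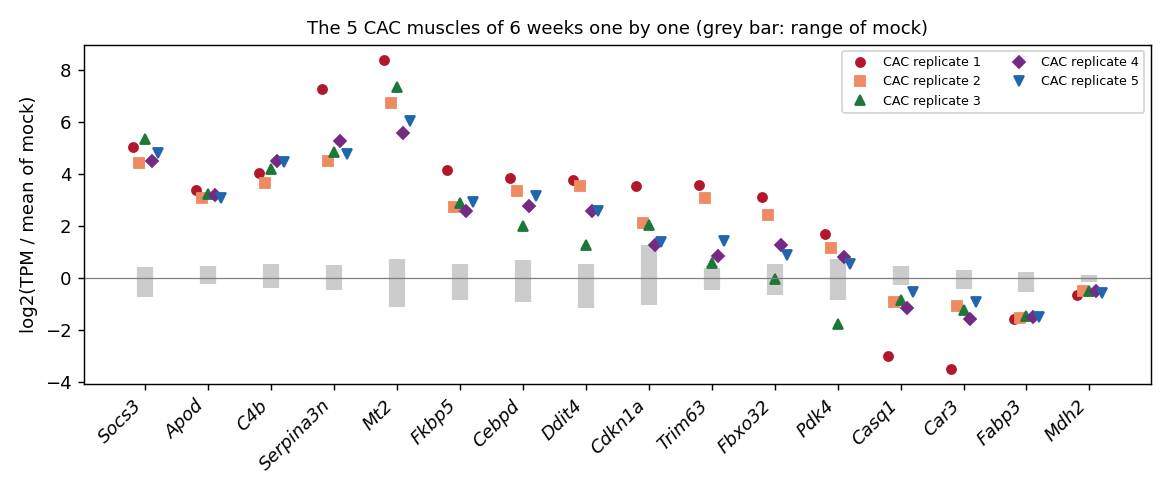
Log2 ratio of the TPM of each CAC library to the mean of the 5 mock libraries for 16 genes; symbols are CAC replicates 1 to 5 and grey bars span the mock libraries. Replicates 1 and 2 are highest and replicate 3 lowest for Ddit4, Trim63, Fbxo32 and Pdk4, whereas all 5 lie close together for Apod, Fabp3 and Mdh2.

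Muscle of mice with non-cachectic cells gave a second reference. Against the 5 NCAC libraries of 6 weeks, 6051 of 11175 genes (54.1%) differed in CAC muscle as deposited, 5734 higher (51.3%) and 317 lower (2.84%), and 4194 (37.5%) after rescaling, 2018 higher and 2176 lower. NCAC replicate 4 stood apart in that its mitochondrially encoded share was 61.1%, the highest of its group (47.8 ± 7.90%, SD, n = 5), and without it 579 genes were lower. Socs3 had 0.905 to 2.61 TPM in NCAC muscle (log2 change 4.08, adjusted p = 1.56e-07), and Mt2 had 4.98 to 17.5 TPM (log2 change 6.96, adjusted p = 2.11e-07). Fabp3 was at 925 to 1247 TPM (log2 change -1.42, adjusted p = 2.58e-06), and Actc1 at 67.9 to 208 TPM (log2 change -3.38, adjusted p = 6.89e-06). Mdga1, a cell adhesion protein, was among the 5 largest decreases against NCAC (log2 change -1.97, adjusted p = 0.00038); it held 0.0783, 0.233, 0.432, 0.299 and 0.7499 TPM in CAC and 4.51, 3.88, 4.11, 7.55 and 3.36 TPM in mock muscle. As deposited, the calls of Cs, Myh2 and Myh4 against mock were not repeated against NCAC (limma adjusted p = 0.0913, 0.329 and 0.0606). All values of single genes against NCAC given here are as deposited and include NCAC replicate 4. Whether its high mitochondrially encoded share bears on these lost calls was not tested.

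The effect at week 6 was also set against those of week 4 and week 8, each with its own mock libraries. No gene of 11092 had an effect at 6 weeks that differed from that at 4 weeks at an adjusted p under 0.05 (0% called, limma interaction), under either scaling. An unadjusted p under 0.05 was held by 3207 genes (28.9%) as deposited and by 1131 (10.2%) after rescaling. The median difference of the effects was 0.27 as deposited and 0.01 after rescaling. As deposited, the count of 0 rested on single libraries, since leaving out CAC replicate 2, 4 or 5 of 4 weeks gave 520, 49 and 43 genes and leaving out CAC replicate 2 of 6 weeks gave 147. No gene of 11264 differed between 6 and 8 weeks under either scaling (0% called). There 330 genes (2.93%) had an unadjusted p under 0.05 as deposited and 414 (3.68%) after rescaling. Socs3 in CAC muscle averaged 6.15 ± 4.76 TPM at 2 weeks (SD, n = 5), 20.6 ± 6.77 at 4 weeks (n = 5), 44.5 ± 11.9 at 6 weeks (n = 5) and 58.7 ± 17.96 at 8 weeks (n = 7). As deposited, its effect at 6 weeks exceeded that at 4 weeks by 1.19 on the log2 scale (SE 0.27, limma adjusted p = 0.0681). Fabp3 averaged 735 ± 146 TPM in CAC muscle at 4 weeks and 427 ± 107 at 8 weeks, against 409 ± 10.6 at 6 weeks. The tests do not show that the weeks were alike.

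**Figure D5:**
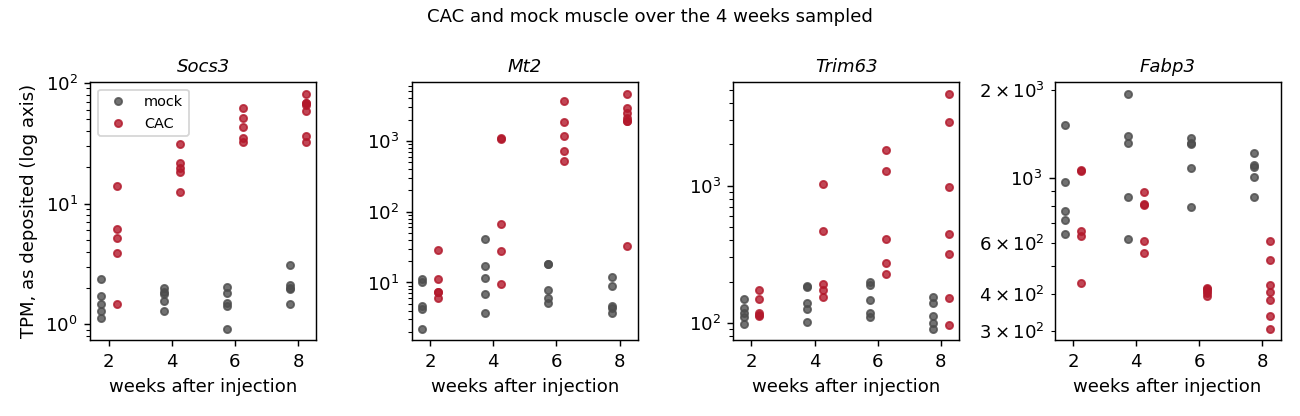
TPM as deposited (log axis) of Socs3, Mt2, Trim63 and Fabp3 in every CAC and mock library at 2, 4, 6 and 8 weeks after injection; each point is a library. At 6 weeks every CAC library is above every mock library for Socs3, Mt2 and Trim63 and below for Fabp3. At 4 weeks CAC and mock overlap for Mt2, Trim63 and Fabp3, and at 8 weeks for Trim63.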

How the data were processed

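Poly(A) RNA of tibialis anterior muscle was sequenced from a stranded library, per the labels' protocols. What the authors deposited is a table of TPM values for 47643 gene symbols in 62 libraries, made on mm10 per the submitters' processing notes; aligner, counter and annotation were not given in the sources used here. Each library adds up to 1000000 TPM, so the sequencing depth is unknown and no counting interval is given; precision comes from the 5 libraries of each group.

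The 5 CAC and 5 mock libraries of 6 weeks were fitted with limma 3.58.1 in R 4.3.3 (empirical Bayes with a mean-variance trend) on log2(TPM + 1), using genes that averaged at least 1 TPM, with Benjamini-Hochberg adjustment over all of them and calls at an adjusted p under 0.05. Rescaled values are TPM divided by median-of-ratios size factors over the libraries of the fit. CAC against NCAC, and the differences of the effect between weeks, were fitted the same way on their own libraries. Shares of TPM were compared by a two-sided exact permutation test. The scripts were tested on simulated data.

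The 42 gene lists, the 17 cell marker lists and the rule for named genes were chosen with earlier results of these data known. The rule takes the 15 largest increases and 15 largest decreases called under both scalings without overlap of the groups and with at least 5 TPM in the higher group, up to 4 called genes of each list, a fixed panel of muscle genes, and the 5 largest differences each way against NCAC. Alternatives were the scaling, the pseudocount, the filter, mitochondrially encoded genes left out, all 62 libraries, a replicate block and each replicate left out. Promoters came from RefSeq on GRCm38.p6, where 10562 of the 11151 tested symbols matched a gene and 8472 had a promoter.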

Additional observations from a re-analysis of the deposited data

Results flagged for a closer look

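Within groups of 5, a highest or lowest library was called far from the rest where its gap to the nearest other library exceeded 0.71 of the group's range (Dixon's criterion). Over 160 groups of values of the 76 genes, library shares and scores examined, 22 met it, and 13 of the 22 were CAC replicate 1. Chance gives about 1 in 20 for independent normal values. The groups examined came from the same 10 libraries and were not independent, so the counts cannot be judged against that rate.

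CAC replicate 1 was the highest CAC muscle for Lcn2 (188 TPM), Serpina3n (377 TPM), Fkbp5 (185 TPM), Eif4ebp1 (824 TPM), Cdkn1a (145 TPM), Des (3578 TPM), Plin4 (699 TPM) and Gpx3 (894 TPM). It was the lowest for Ndufs1 (119 TPM) and Acaa2 (105 TPM). The same library had the lowest share of TPM in the 50 most abundant genes (52.5%), the highest first principal component score (61.5) and the highest size factor (1.37). The gene values examined were TPM as deposited, which that size factor affects. Which of these genes would meet the criterion after rescaling was not tested. CAC replicate 4 stood apart for Hp (261 TPM).

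In mock muscle, replicate 1 was far above the others for Cdkn1a (30.5 TPM), Lox (2.58 TPM) and Apod (27.1 TPM). Replicate 4 was so for Mt1 (59.5 TPM), Flnc (257 TPM), Hspb7 (551 TPM) and Mdga1 (7.55 TPM), and replicate 5 for Hp (6.50 TPM).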

How the results depend on the processing

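For CAC against mock, leaving out mitochondrially encoded genes gave 4685 genes (3824 higher, 861 lower) in place of 7344, and rescaling gave 3526 (1641 higher, 1885 lower); leaving out each replicate in turn gave 6289 to 7423 genes as deposited and 2505 to 3642 after rescaling. With size factors from genes of at least 10 TPM, 3613 genes differed, 2029 higher and 1584 lower, and with upper-quartile scaling 3516, 1812 higher and 1704 lower. For CAC against NCAC, a mean of at least 5 TPM gave 3994 genes (3770 higher), rescaling gave 2018 higher and 2176 lower, leaving out mitochondrially encoded genes gave 959 lower, and leaving out 1 replicate in turn gave 4853 to 6042 genes, 215 to 579 of them lower. For 6 against 4 weeks, a fit on all 62 libraries gave 165 genes and leaving out 1 replicate gave 0 to 520. Apart from rescaling, which moves all genes by construction, and fewer genes tested, the cause was not tested. The replicate numbers are shared by the groups, and the labels do not say that they pair samples. Same-numbered CAC and mock libraries deviated with correlations of 0.0487, -0.0966, 0.147, -0.145 and 0.0378, which cannot exclude a shared litter or day. A replicate block gave 7339 genes as deposited, 3266 after rescaling, 6091 against NCAC and 0 for both week differences. None of the 76 genes examined changed direction under any alternative; Fbxo32, Chrna1, Mstn and Myh4 lost their calls after rescaling, Myh4 also without mitochondrially encoded genes (adjusted p = 0.133), Myh4 and Myh2 in the fit on all 62 libraries (0.0673 and 0.192), and mt-Co2, Myh4 and Myh2 without a filter (0.172, 0.0692 and 0.0671). Without CAC replicate 1 the fallers as deposited were 1 in place of 2 in the insulin, slow-fibre and clock lists, 0 in place of 1 in the PGC-1 list and 0 in place of 2 in the myostatin list, and complex I had 1 riser in place of 2. Of 840 counts of list members as deposited with 1 replicate left out, 85 moved by over 1.5 times, 68 of these between counts of at most 3. For single genes and lists, replicates were left out as deposited only, so their calls after rescaling were not checked in this way. TPM gives no depth, so low genes cannot be told from sampling noise.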

Other observations

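Gene lists outside the comparisons above moved in part. Of 26 tested antioxidant enzymes, 19 rose and 2 fell as deposited, and 9 rose and 5 fell after rescaling; the secreted glutathione peroxidase Gpx3 held 548 TPM in CAC and 106 TPM in mock muscle on average (limma log2 change 2.36, 1.92 after rescaling). Of 13 iron uptake and storage genes, 8 rose and 1 fell as deposited, and 4 rose and 1 fell after rescaling, with 5 risers as deposited without mock replicate 2 or 4. Steap4, a metalloreductase, averaged 44.6 TPM against 17.6 TPM (log2 change 1.28). Of 17 circadian clock genes, 6 rose and 2 fell as deposited, and 1 rose and 4 fell after rescaling. Nfil3, a repressor of clock output, averaged 75.3 TPM against 18.7 TPM with overlapping groups (log2 change 2.04). Of 13 polyamine genes, 5 rose and 1 fell as deposited, and 1 rose and 3 fell after rescaling. Itga7, the laminin receptor subunit of muscle, averaged 66.0 TPM against 31.4 TPM (log2 change 1.08).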
